A study of Sus scrofa with 6 samples.

Results

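The fatty acid elongase ELOVL6 and the stearoyl-CoA desaturase SCD were followed in the backfat of castrated and intact male pigs. Members were all probe sets whose only gene symbol was ELOVL6 or SCD, and this gave 2 of the 6765 genes named by such a symbol, measured by 5 of the 24123 probe sets on the array, 4 for ELOVL6 and 1 for SCD. A probe set is a group of short probes that together give 1 signal for a transcript. Both genes were picked with the outcome of the barrow and boar comparison known, because the bright and the dim probe sets of ELOVL6 disagreed there. The 3 dimmer ELOVL6 probe sets share the cluster number 9392 in their names, and the brightest carries 1008. The accession behind the SCD probe set is a RefSeq transcript of that gene, while those behind the 4 ELOVL6 probe sets are not RefSeq transcripts of ELOVL6. The differences between the groups are given as a description, without a p-value.

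Boars are intact males and barrows are males whose testes were removed by surgery at 7 days of age. The 30 animals came from 15 brother pairs with a Pietrain father and a Landrace mother. In each pair 1 piglet was castrated and the other left intact, all were weaned at 30 days and fed freely, and all were killed at 175 days of age. RNA came from the middle backfat layer at the 6th rib, was pooled from 5 pigs of 1 kind, and each of the 6 pools was measured on an Affymetrix array of its own, 3 for boars and 3 for barrows. A replicate is thus a pool, so the spread below is that between pools and not that between pigs. In whole fat, a change in the RNA per cell and a change in the share of cells of a type cannot be told apart.

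ELOVL6 sits in the membrane of the endoplasmic reticulum and carries out the condensation step that lengthens palmitate to stearate. SCD, in the same membrane, places the first double bond into stearate and palmitate and so makes oleate and palmitoleate. Together they turn the palmitate released by fatty acid synthase into the long and monounsaturated fatty acids that fill stored triacylglycerol, and in pigs the fat tissue itself is the main site of this synthesis.

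Signals are MAS5 values in arbitrary units, and the trimmed mean of each array, calculated here from the deposited values, was close to 500.1. Differences are barrow minus boar on log2(signal + 16), and their standard errors (SE) come from 1 limma fit over 14399 probe sets, the brightest 60% by their mean, among which all 5 members were. Within groups the arrays correlated at 0.978 to 0.988 over these probe sets. The log2 ratio of 3' to 5' control signals, a measure of RNA integrity, ran from 1.99 to 2.13 in boars and 1.85 to 2.13 in barrows for actin, and from 1.245 to 1.36 and 1.09 to 1.44 for GAPDH.

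ELOVL6 signal was higher in barrow fat in all 4 of its probe sets, by 1.75- to 1.94-fold in the 3 dimmer ones and by 1.16-fold in the brightest. Probe set Ssc.9392.3.A1_at gave 3224, 3621 and 3327.5 in boar replicates 1, 2 and 3 and 6342, 6720 and 6691 in barrow replicates 1, 2 and 3. The lowest barrow pool stood 1.75 times above the highest boar pool. The group means were 3391 ± 206 and 6584 ± 210.5 (SD, n = 3 each), a difference of 0.96 (SE 0.07) on the log2 scale.

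Ssc.9392.2.S1_at gave 2732, 2942 and 2498 in boars and 4711, 5230 and 4587 in barrows. Its means were 2724 ± 222 and 4843 ± 341 (SD, n = 3 each) and its log2 difference was 0.83 (SE 0.08). Ssc.9392.1.S1_at gave 2674, 2723 and 2542 in boars and 4548, 4912 and 4489 in barrows, with a log2 difference of 0.81 (SE 0.07). In both, every barrow pool lay at least 1.56 times above every boar pool.

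The brightest ELOVL6 probe set, Ssc.1008.1.A1_at, gave 18385, 19119 and 17771 in boars and 22830, 20105 and 21334 in barrows. The groups did not overlap here either, but the lowest barrow pool was only 1.05 times the highest boar pool. The means were 18425 ± 675 and 21423 ± 1365 (SD, n = 3 each), a log2 difference of 0.22 (SE 0.07).

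SCD had 1 probe set, Ssc.16159.1.S1_at, with 21859, 23636 and 21578 in boars and 26404, 23648 and 22825 in barrows. The groups overlapped, since barrow replicate 3 lay below boar replicate 2, and barrow replicate 1 stood highest. The means were 22358 ± 1116 and 24292 ± 1874 (SD, n = 3 each) and the log2 difference was 0.12 (SE 0.07), which is close to the pooled SD between pools of 0.09. Without barrow replicate 1 it was 0.06 (SE 0.07), and with quantile normalization, which gives all arrays the same distribution, it was 0.04 (SE 0.04).

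**Figure D1:**
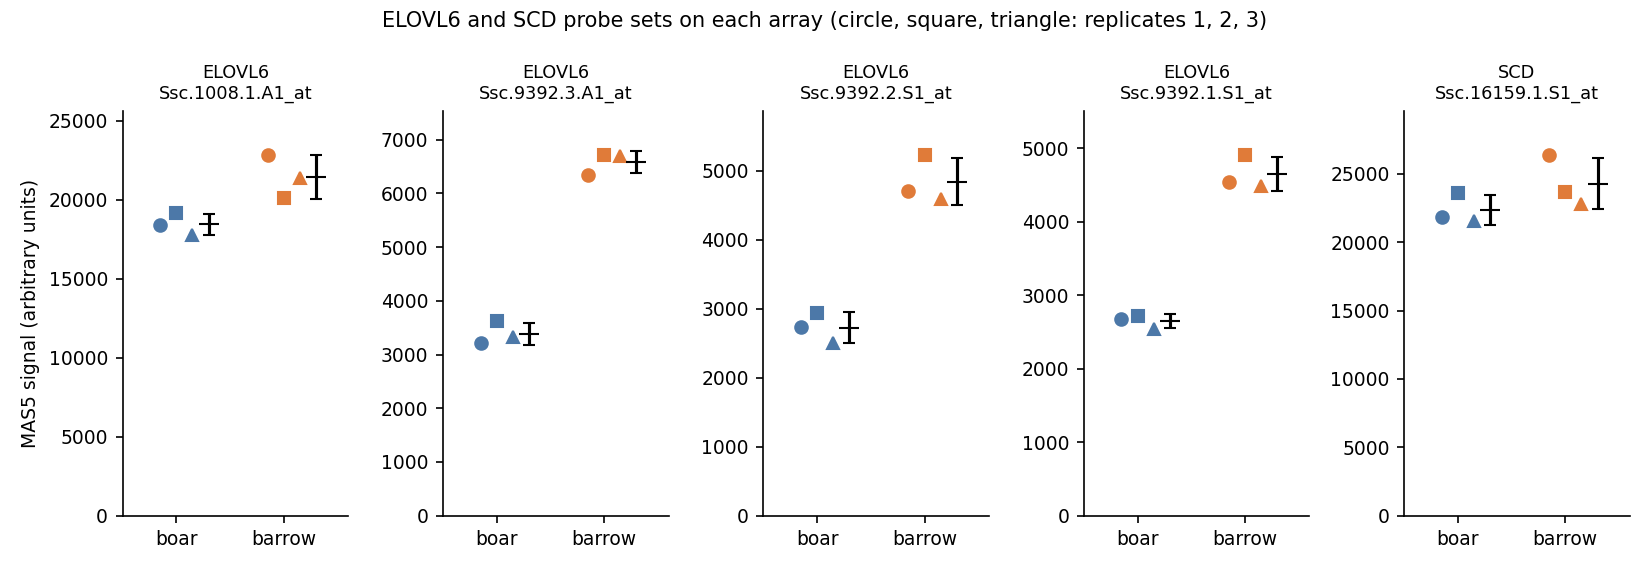
MAS5 signal in arbitrary units of the 4 ELOVL6 probe sets and the SCD probe set on each of the 6 arrays, with the group mean and SD (n = 3) beside the points and each vertical axis starting at 0. In the 3 dimmer ELOVL6 probe sets all barrow pools stood well above all boar pools, in the brightest the groups lay close, and in SCD they overlapped.

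As a count, 3 of the 5 probe sets, all of ELOVL6, passed a limma adjusted p of 0.05 and were higher in barrows, as were 0.701% of the probe sets tested, with 0.458% lower and 1.16% in either direction. The groups did not overlap in 4 of the 5, with the barrows above, as in 8.38% of all tested and 18.1% in either direction. Since this same contrast led to the choice of the genes, nothing is read from these counts. The 3 dimmer ELOVL6 probe sets had 16, 41 and 44 probe sets with a larger rise among all 14399. The brightest had 1667 and SCD had 3298.

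The labels number the pools of each kind without saying that a number marks the same families, and the deviations of same-numbered pools correlated weakly. Set against the boar pool of the same number, barrow pools 1, 2 and 3 differed on the log2 scale by 0.97, 0.89 and 1.004 in Ssc.9392.3.A1_at. The corresponding values were 0.78, 0.83 and 0.87 in Ssc.9392.2.S1_at and 0.76, 0.85 and 0.82 in Ssc.9392.1.S1_at. The dimmer ELOVL6 probe sets thus differed by a like amount in every pair. In the brightest ELOVL6 probe set the 3 differences were 0.31, 0.07 and 0.26, and in SCD they were 0.27, 0.00077 and 0.08, with pair 2 the smallest in both. With the replicate number as a block the SE of the 5 differences was 0.06 in each, and 3 of the 5 again passed the threshold, against 2.35% of all probe sets tested with the block.

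The gap between the ELOVL6 probe sets was itself measured on each array as the log2 ratio of a dimmer probe set to the brightest. For Ssc.9392.3.A1_at this ratio was -2.51, -2.40 and -2.41 in boars and -1.85, -1.58 and -1.67 in barrows. The boar mean was -2.44 ± 0.06 and the barrow mean -1.70 ± 0.14 (SD, n = 3 each), so the dimmer probe set came 0.74 closer to the brightest in barrows. The corresponding values were 0.61 for Ssc.9392.2.S1_at and 0.59 for Ssc.9392.1.S1_at. A ratio between probe sets shows unequal change and not which of them tracks the transcript.

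Deviations of the arrays from their own group mean do not depend on the difference between the groups. They too set the brightest ELOVL6 probe set apart, mainly in the barrow pools. Over the 6 arrays Ssc.9392.2.S1_at and Ssc.9392.1.S1_at deviated together (Pearson r = 0.96), and Ssc.9392.3.A1_at followed them less closely (r = 0.56 and 0.42). Over both groups the brightest ELOVL6 probe set did not follow the 3 dimmer ones (r = -0.05, -0.03 and -0.26). In boars all 4 were highest in replicate 2. In barrows the brightest was highest in replicate 1 (0.09) and lowest in replicate 2 (-0.09), where the 3 dimmer ones were highest (0.03, 0.11 and 0.08). The brightest ELOVL6 probe set followed SCD more closely, with r = 0.80 over the 6 arrays. The 4 ELOVL6 probe sets share 1 gene and the same 6 arrays, so they are not replicates of each other, and these correlations are given as descriptions over 6 arrays.

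Both bright probe sets lay near the top of the array's scale. The ELOVL6 probe set Ssc.1008.1.A1_at had 46 brighter probe sets among those tested and SCD had 14. The highest signal of an array ran from 27591 to 32517, and the brightest ELOVL6 probe set reached 60.7% to 64.4% of it in boars and 65.5% to 70.3% in barrows. SCD reached 74.4% to 78.2% in boars and 75.2% to 81.2% in barrows. The 3 dimmer ELOVL6 probe sets reached at most 22.0% on any array.

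The arrays also differed from each other at the bright end. The mean log2 signal of the brightest 1% of probe sets, 141 without the members, lay 0.07 above its group mean in barrow replicate 1 and 0.06 above it in boar replicate 2. These are the 2 arrays on which SCD was highest in its group (0.12 and 0.08 above). Within groups, SCD correlated with this bright-end mean at r = 0.95 and the brightest ELOVL6 probe set at r = 0.93, over 6 arrays. The dimmer ELOVL6 probe sets correlated with it at 0.12, 0.28 and 0.06.

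Between the groups the bright-end mean was 0.03 higher in barrows. With each array centred on it, a scaling chosen after seeing the data, the log2 difference was 0.09 (SE 0.05) for SCD and 0.19 (SE 0.05) for the brightest ELOVL6 probe set. The dimmer ELOVL6 probe sets had 0.93, 0.80 and 0.78 in the same fit. The order of the 5 probe sets was kept.

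**Figure D2:**
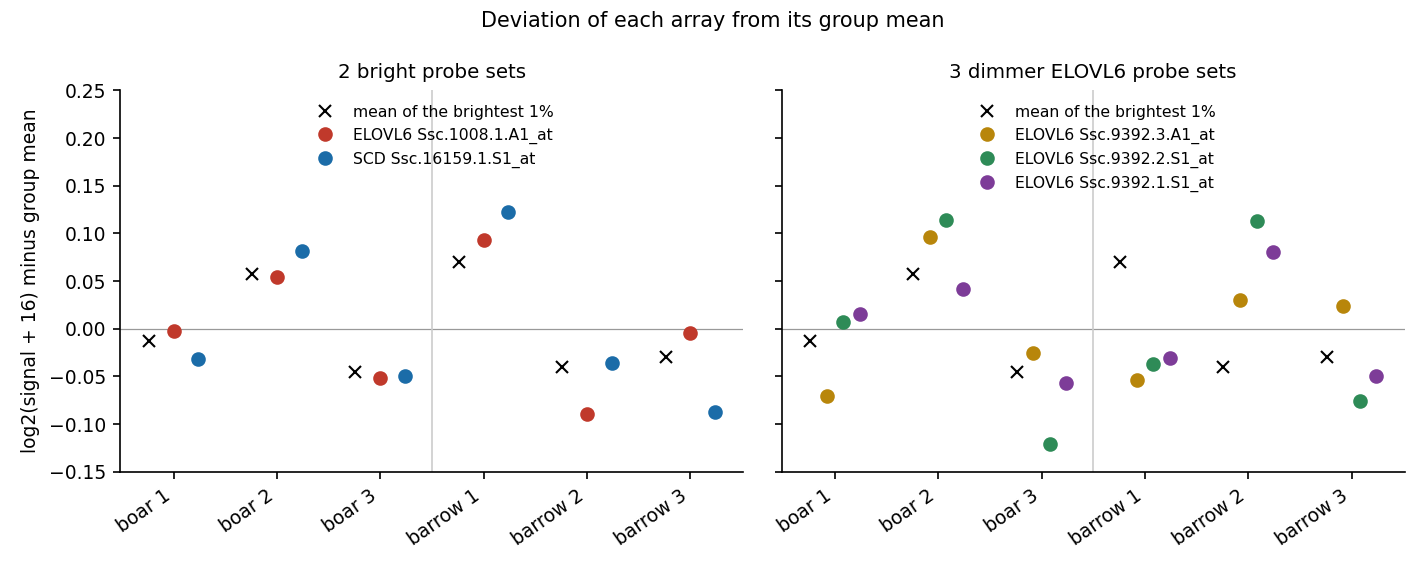
Deviation of log2(signal + 16) from the group mean on each of the 6 arrays, for the 2 bright probe sets (left) and the 3 dimmer ELOVL6 probe sets (right), with crosses for the mean of the 141 other probe sets in the brightest 1%. SCD and the brightest ELOVL6 probe set lie near the crosses, with r = 0.95 and 0.93, while the dimmer ELOVL6 probe sets fall below the cross in barrow replicate 1 and above it in barrow replicate 2.

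Differences between barrows and boars were small throughout the brightest 1% of probe sets. Their log2 differences ran from -0.20 to 0.34 with a median of 0.03 once the members were left out, and the highest was that of fatty acid synthase, FASN. Only 2 of the 141 had a larger rise than the brightest ELOVL6 probe set, and 12 had a larger rise than SCD. The median absolute difference was 0.05 in the brightest 1%, 0.09 in the next 4% and 0.14 in the 7200 dimmest of those tested. The spread between pools was smaller as well, with a median SD of 0.20 in those 7200 and 0.08 at the bright end. Each dimmer ELOVL6 probe set was exceeded in its rise by 1 of the roughly 400 probe sets nearest to it in brightness (400, 399 and 399). Since this same contrast led to the choice of the genes, nothing is read from the ranks of the members.

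**Figure D3:**
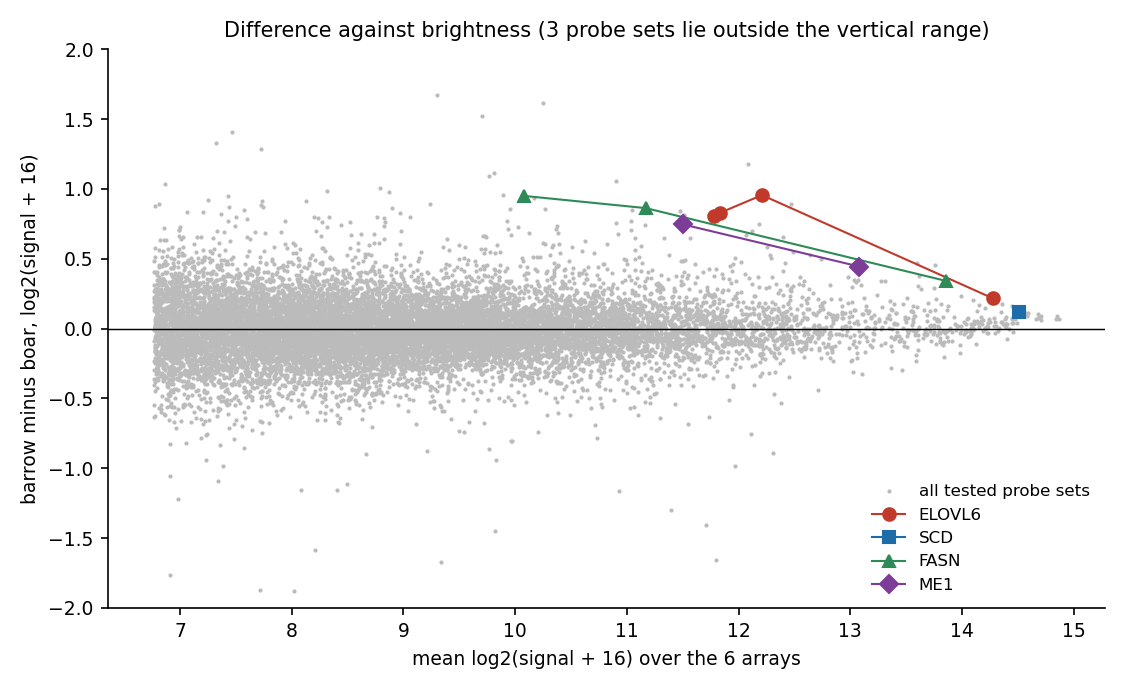
Log2 difference, barrow minus boar, against the mean log2(signal + 16) over the 6 arrays for all 14399 tested probe sets, with 3 probe sets outside the plotted range. Lines join the probe sets of a gene: in ELOVL6, FASN and malic enzyme ME1 the brightest probe set had the smallest difference, and SCD lies at the bright tip of the cloud.

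Whether other genes had such a gap was examined over the genes with a probe set in the brightest 1% and at least 1 other tested. Apart from ELOVL6 there were 38. The brightest probe set had the smaller absolute difference in 27 of them (71.1%), against 783 of 1410 (55.5%) among all genes with several tested probe sets. The spread between pools was also larger in dim probe sets, with a median SD of 0.20 in the 7200 dimmest and 0.08 in the brightest 1%. Such a spread can by itself leave the brightest probe set with the smaller difference, and its part in these counts was not tested. In ELOVL6 the brightest probe set and the median of the others lay 0.61 apart, while the median gap was 0.09 in the 38 genes and 0.12 in the 1410. ELOVL6 was picked because its probe sets disagreed, so nothing is read from the size of its gap beside those of other genes. The 38 genes also changed little, with a median absolute difference of 0.04 in the brightest probe set and 0.10 in the others. A gap at least as large occurred in 1 of the 38 and in 21 of the 1410. The 1 was the ribosome-associated scaffold RACK1, with -0.04 in its brightest probe set and 0.84 in its other. FASN had 0.34 in its brightest probe set and 0.86 and 0.95 in the others. The part of signal compression at the bright end in these gaps was not tested, since probe-level data were not used here.

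**Figure D4:**
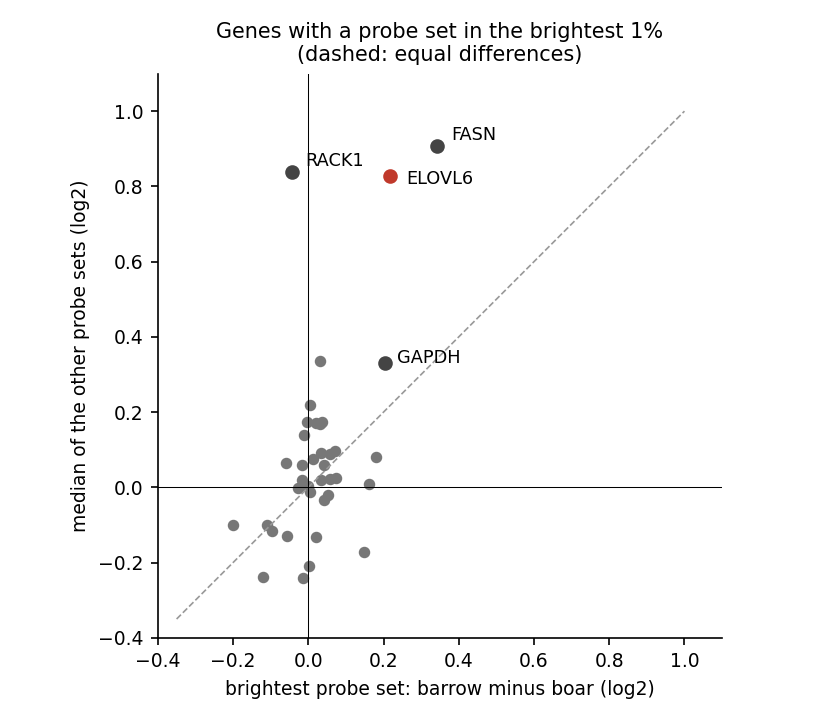
Median log2 difference of the other tested probe sets against that of the brightest probe set, barrow minus boar, for the 39 genes with a probe set in the brightest 1%. ELOVL6 (0.22 and 0.83), FASN (0.34 and 0.91) and RACK1 (-0.04 and 0.84) stand far above the dashed line of equal differences, and most other genes lie near 0 on both axes.

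None of the other enzymes of the elongation cycle that could be tested passed the threshold. Of 17 listed symbols, older names included, 5 had a probe set and 3 were tested, and 0 of the 3 passed the limma threshold on their brightest probe set, with a median log2 difference of 0.14 against -0.01 over the 5356 genes tested, of which 1.51% were called in either direction and 0.971% higher. HSD17B12, the ketoacyl-CoA reductase that acts right after ELOVL6, had 0.21 (95% CI 0.04 to 0.38, limma adjusted p = 0.30), and its groups did not overlap. The dehydratase HACD3, which acts next, had 0.14 (adjusted p = 0.51), with 0.21, 0.31 and -0.12 in its other probe sets and no call in any by limma. ELOVL1, the elongase of saturated very long chains, had 0.07 (95% CI -0.18 to 0.32, limma adjusted p = 0.86). These intervals include rises, so the genes are not shown to be unchanged. By limma's unadjusted p, 1 of the 3 genes lay under 0.05, HSD17B12, as did 13.7% of the 5356 genes tested. The other elongases were either without a probe set under their symbol or, in the case of ELOVL3, below the filter.

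Desaturation draws electrons from cytochrome b5 and its reductases, and in this list 0 of 5 tested genes passed the threshold (13 symbols, 8 with a probe set, median 0.18). The carrier that hands electrons to SCD in the endoplasmic reticulum, CYB5A, gave 5530, 7109 and 5281 in boars and 6375, 8621 and 6446 in barrows, with the replicate 2 pools highest in both groups. Its log2 difference was 0.26 (limma adjusted p = 0.49). CYB5B, the carrier of the mitochondrial outer membrane, had -0.40 (95% CI -0.63 to -0.17, limma adjusted p = 0.12), and the reductase CYB5R1 had 0.44 (95% CI 0.15 to 0.73, limma adjusted p = 0.17; blocked by replicate number, 0.043). These 2 of the 5 genes had an unadjusted limma p under 0.05, against 13.7% of all genes tested. SCD5, the other stearoyl-CoA desaturase, is named for its kinship to SCD, a choice made after its values were seen. It was dim, with a boar mean of 136 ± 52.9 and a barrow mean of 159 ± 73.6 (SD, n = 3 each), and had 0.18 (95% CI -0.56 to 0.92, limma adjusted p = 0.89). The ceramide desaturase DEGS1 had -0.05 (limma adjusted p = 0.87).

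Of the 6 tested genes in the list for palmitate supply, 2 rose on their brightest probe set, FASN and malic enzyme ME1, and 0 fell (median 0.36). Their limma adjusted p was 0.035 and 0.028 in the analysis as planned and up to 0.23 and 0.18 under the alternatives. The acetyl-CoA synthetase ACSS2 had 0.42 (limma adjusted p = 0.092; blocked by replicate number, 0.020), the acetyl-CoA carboxylase ACACA 0.39 (limma adjusted p = 0.55) and the citrate carrier SLC25A1 0.16 (limma adjusted p = 0.70). The mitochondrial malonyltransferase MCAT had -0.16 (limma adjusted p = 0.76). The other FASN probe sets, at 0.86 and 0.95, had limma adjusted p of 0.097 and 0.10, and 0.0025 and 0.0073 when blocked by replicate number. With each of boar replicates 1 and 3 and barrow replicates 1 and 3 left out in turn, 0 of the 6 passed on their brightest probe set. The dimmer ME1 probe set, at 0.75 (limma adjusted p = 0.0053), passed in 14 of the 15 alternatives, all those that left out an array among them, and did not pass without the intensity trend.

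Among the regulators of these genes 0 of 12 passed, with 4 above 0 and a median of -0.04. The liver X receptor NR1H3, a nuclear receptor known to drive SREBF1 and SCD, had -0.38 (95% CI -0.61 to -0.15, limma adjusted p = 0.13) and every barrow pool lay below every boar pool. INSIG2, which retains the SREBP proteins in the endoplasmic reticulum, had -0.22 (limma adjusted p = 0.42). SREBF2 had -0.15 and USF2 0.23 (limma adjusted p = 0.69 for each). By limma's unadjusted p, 1 of the 12 genes lay under 0.05, NR1H3, a share below the 13.7% of all genes tested. SREBF1, the regulator most closely tied to ELOVL6 and SCD, was below the filter and not compared.

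Genes that use the acyl-CoA products gave 0 calls in 13 (median 0.06). LPCAT3, which places polyunsaturated acyl chains into phospholipids, had -0.36 (limma adjusted p = 0.22), and AGPAT3 -0.26 and AGPAT2 0.43, 2 acyltransferases of glycerolipid synthesis (limma adjusted p = 0.36 and 0.38). The triacylglycerol-forming enzyme DGAT2 had 0.11 (limma adjusted p = 0.58). These 3 of the 13, LPCAT3, AGPAT3 and AGPAT2, had an unadjusted limma p under 0.05, against 13.7% of all genes tested.

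**Figure D5:**
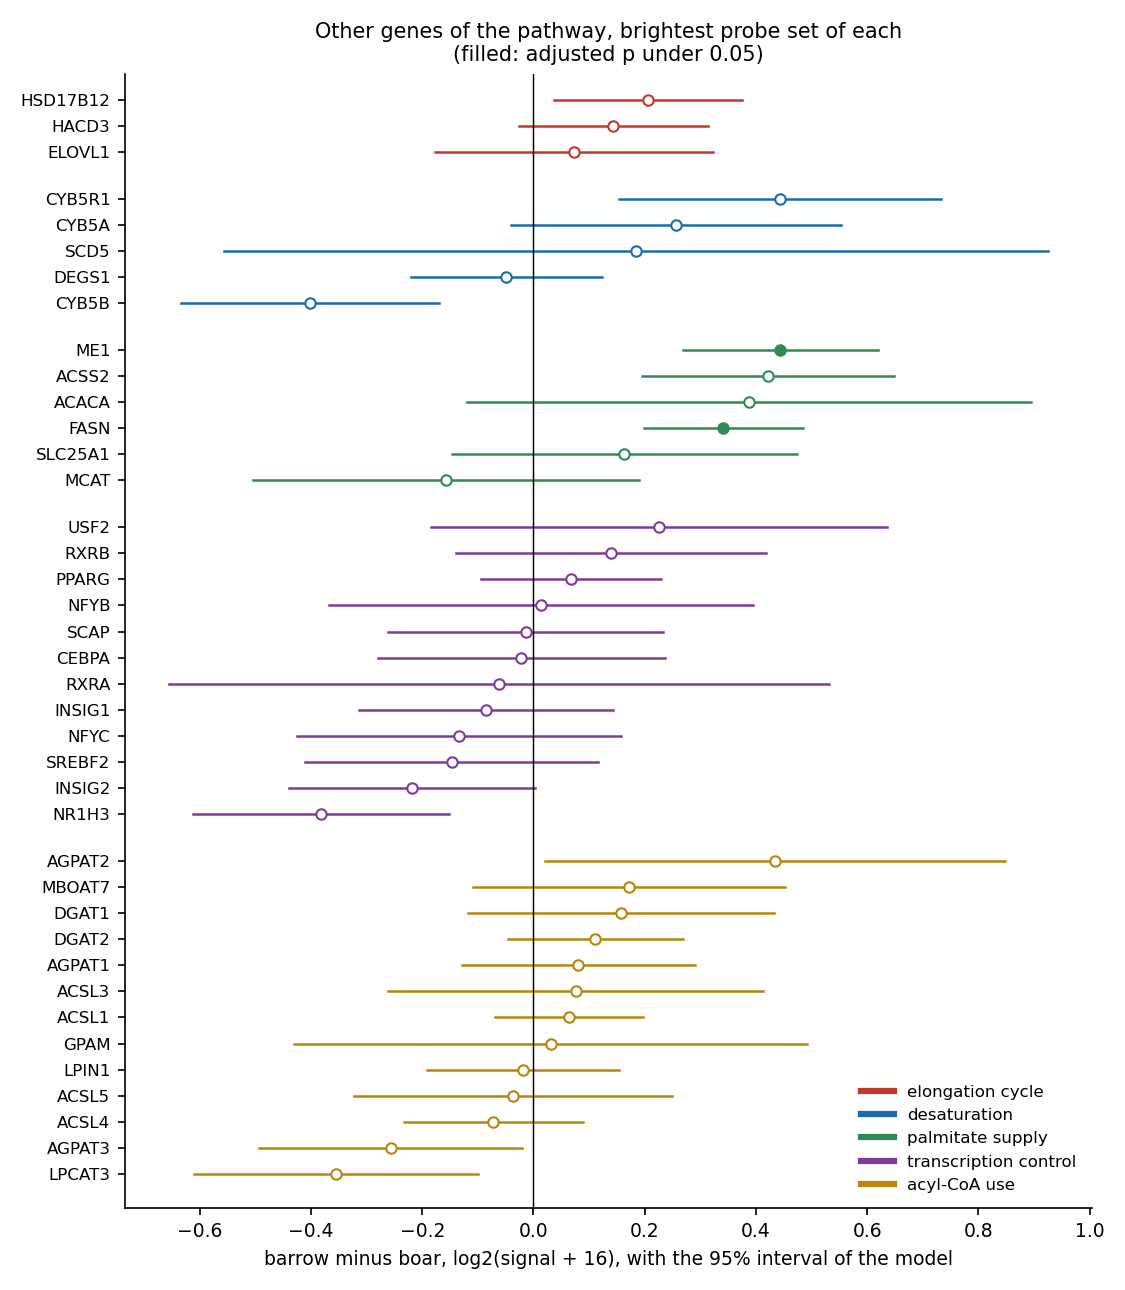
Log2 difference, barrow minus boar, with the 95% interval of the limma model for the brightest probe set of 39 tested genes in 5 pathway lists; filled points have a limma adjusted p under 0.05. The 2 filled points, ME1 and FASN, are in palmitate supply, and among the desaturation genes CYB5B lies below 0 and CYB5R1 above it, neither past the threshold.

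Cell type markers were summed over their probe sets to set beside the ELOVL6 values. Adipocyte markers, of which 7 of 10 had a probe set, summed to 87825 to 92495 in boars and 84169 to 95205 in barrows, so the groups overlapped. ADIPOQ, FABP4 and LPL, with boar means of 22244, 18545 and 15504, weighed most in this sum. They lay at the bright end, where differences were small throughout. Of the 7 genes, 4 lay above 0 (median 0.005), and leptin, LEP, was the 1 past the threshold. Endothelial markers (9 of 10) summed to 21384 to 22112 in boars and 18815 to 19645 in barrows, so the groups did not overlap. PECAM1, with boar means of 7605 and 3373 in its tested probe sets, weighed most in this sum. Of the 9 genes, 1 was called lower, TEK, beside 1.51% of all genes tested called in either direction. None of the 9 lay above 0, but CDH5 (-0.0009) and VWF (-0.05) were nearly level. The median log2 difference of the 9 was -0.29, against -0.01 over all genes tested. Macrophage markers (6 of 10) summed to 8179 to 10488 and 7623 to 9026, with 0 of 6 called, 1 of 6 above 0 and a median of -0.28. The gene above 0 was CD163, with 0.15 on its brightest probe set but -0.70 on its other (limma adjusted p = 0.094). When blocked by replicate number 1 of 6, C1QA, was lower (-0.44, limma adjusted p = 0.13, blocked 0.035). Stromal markers (8 of 10) overlapped at 35876 to 41962 and 30809 to 43559, with 0 of 8 called, 5 of 8 above 0 and a median of 0.07. When blocked by replicate number, DPT was lower (-0.32, limma adjusted p = 0.060, blocked 0.041) and FBLN1 higher (0.50, limma adjusted p = 0.069, blocked 0.047). Lymphocyte markers (6 of 10) were dim at 516 to 753 and 470 to 546, with 0 of the 4 tested above 0 and a median of -0.27. Skeletal muscle markers (8 of 12) summed to 162 to 173 in boars and 151 to 225 in barrows and all lay below the filter.

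Skin and gland epithelium markers (7 of 12 with a probe set) summed to 372 to 474 in boars and 727 to 2105 in barrows. PIP, a secreted gland protein, gave 13.7, 3.8 and 29.9 in boars and 207, 1508 and 219 in barrows. The keratin and junction markers lay below the filter apart from KRT8, with 156, 124 and 174 in boars and 158, 95.8 and 138 in barrows. Barrow replicate 2, where PIP was highest, also had the highest value of the 3 dimmer ELOVL6 probe sets. Without it their differences were 0.94, 0.77 and 0.77 in the order given above, and that of SCD was 0.14. No marker probe set was listed at 0. The part of cell composition in the ELOVL6 difference was not tested.

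The genes whose signals ran most like ELOVL6 over the 6 arrays were chosen by the median Pearson correlation with its 4 probe sets. They were the carboxylesterase CES1 and HLCS, which attaches biotin to carboxylases (r = 0.99 for both), the mitochondrial aldehyde dehydrogenase ALDH1B1 (r = 0.99), the succinate dehydrogenase subunit SDHA (r = 0.98) and the nuclear protein PIR (r = 0.98). Their log2 differences, barrow minus boar, were 0.89, 0.37, 0.64, 0.30 and 0.41 in this order, and since likeness to ELOVL6 over both groups chose them, these are given without a test. After centring within groups the median r was 0.79, 0.79, 0.81, 0.51 and 0.64 in the same order. For SCD the closest were RAB3IL1, GNB5, UBE2F, ANXA2 and DNAJC14 (r = 0.97 to 0.99, and 0.95 to 0.99 within groups). None of the 5 probe sets nearest to ELOVL6 was among the 5 nearest to SCD. With 6 arrays and 7186 named probe sets compared, 178 exceeded r = 0.9 with ELOVL6 and 70 with SCD, so these names are a description of the 6 arrays.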

How the data were processed

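RNA pools of 5 pigs were measured on 6 arrays. The deposited values are signal intensity per probe set on a linear scale, made with MAS5 per the submitters' processing notes (version and settings not given in the sources used here). Detection calls were not used here. Of 24123 probe sets, 124 controls were left out, and 10099 had 1 gene symbol (198 several, 13826 none). Values were transformed to log2(signal + 16), and the 2 groups were set against each other in limma 3.58.1 under R 4.3.3 (eBayes with an intensity trend, 2-sided, Benjamini-Hochberg over all 14399 probe sets tested, threshold 0.05). The lowest mean tested corresponds to a signal of 92.7. A log2 pseudocount understates changes of dim genes, and the few arrays limit the precision. The fit was also run on simulated data with independent noise in each probe set. That setting lacks deviations shared by the probe sets of an array, so nothing is read from it here.

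The members and gene lists were chosen with earlier results of these data known. Each list gene was counted through its brightest probe set that was tested. Named genes were those past the threshold and up to 4 others per pathway list with the smallest p, plus SCD5, added after its values were seen, and the 5 probe sets most like each member gene. Array deviations from the group mean, taken between a boar and a barrow pool of equal replicate number, correlated at 0.12, 0.17 and 0.26 over all tested probe sets, against -0.19 to -0.01 for other combinations. Those of equal number all exceed 0.1, which is the only basis for an alternative fit with the replicate number as a block. The main fit had no block, and the blocked value is given where it changes a call. Alternatives changed the pseudocount, filter, normalization, trend, weights, block and arrays used.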

Additional observations from a re-analysis of the deposited data

How the results depend on the processing

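For the 5 ELOVL6 and SCD probe sets, each difference kept its sign and moved by less than the SD between pools in all 15 alternatives. The 3 dimmer ELOVL6 probe sets passed the limma threshold in each. Over all probe sets 24 to 291 passed with 1 array left out and 32 to 425 in the other alternatives. Since the members were chosen on this same contrast, nothing is read from how often they passed. With 1 array left out the differences were 0.92 to 1.003, 0.77 to 0.88 and 0.77 to 0.83 for the dimmer ELOVL6 probe sets, 0.17 to 0.26 for the brightest and 0.06 to 0.16 for SCD. The scaling on the brightest 1% was added after seeing the data. The brightest ELOVL6 probe set also passed with array weights, which makes 4 of 5, beside 425 of all 14399 tested.

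Counts over all probe sets depended more on the choices. Against 167 probe sets past the threshold (101 higher, 66 lower), 96 passed without a filter (61 and 35), 32 without the intensity trend (20 and 12), 425 with array weights (233 and 192) and 338 with the replicate block (215 and 123). With 1 array left out they ran from 24 (without boar replicate 1) to 291 (without barrow replicate 2), with 16 to 160 higher and 8 to 131 lower. The block changed no call of a member.

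In palmitate supply the 2 genes that rose became 0 without a filter and without the trend, 0 to 2 with 1 array left out, and 3 with array weights and with the replicate block. In desaturation 1 gene rose with the replicate block, 1 fell with array weights, and 0 to 1 fell with 1 array left out. Among the transcription regulators 1 fell with array weights and 0 to 1 with 1 array left out. The cause of these shifts was not tested. No probe-level data were used here, so saturation could not be separated from other limits at the bright end.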

Other observations

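Among the pathway lists, 11 genes had a probe set but lay below the filter, so no difference was tested. The desaturases of polyunsaturated fatty acids were among them. FADS1 ranged from 57.8 to 62.7 in boars and from 32.0 to 70.5 in barrows. One probe set of FADS2 ranged from 3.5 to 20.2 in boars and from 28.6 to 47.8 in barrows, and its other from 11.1 to 26.3 and from 6.9 to 22.8, so the 2 did not show the same order. SREBF1, the transcription factor that drives lipogenic genes, ranged from 77.8 to 94.0 in boars and from 40.3 to 99.2 in barrows. ELOVL3, an elongase of saturated and monounsaturated chains, ranged from 13.6 to 24.7 in boars and from 2.5 to 13.3 in barrows.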
